A study of Anethum foeniculum with 6 samples.

Results

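A set of 20 of the 27955 Trinity genes in the deposited tables had a higher level in every fennel leaf library at 800 ppm CO2 than in any at 400 ppm CO2 and also passed a threshold of level and ratio. Each of the 20 had a summed TPM (a level of transcripts corrected for contig length and library size) of at least 5 in every library of the 800 ppm group, and its lowest 800 ppm value was at least 5 times its highest value in the 400 ppm group. A Trinity gene is a group of contigs that the assembler joined from shared sequence, and the TPM of its contigs was added up. The members were chosen on the TPM of both CO2 groups, so the difference between the groups is given as a description without a test. The working description of the set was genes largely switched on at 800 ppm. None of the 20 had a TPM of 0 in all 3 libraries of the 400 ppm group, so they are described as higher at 800 ppm rather than as switched on.

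Leaf RNA of fennel (*Foeniculum vulgare* Mill.), labelled wild type, was sequenced after 5 weeks in hydroponics at 800 ppm CO2 and at 400 ppm CO2, with 3 libraries labelled as biological replicates in each group. All plants shared the seed source, the recipe of the nutrient solution and a 12-h light period according to the methods of the study. The paper also reports that air temperature, humidity and the conductivity, pH and dissolved oxygen of the solution differed between the greenhouses. CO2 was supplied per greenhouse, so CO2, greenhouse and these measured conditions cannot be told apart in these libraries. The sources used here do not say whether a library came from 1 plant or from pooled plants, and any p-value measures the spread between these libraries only. The libraries held 15621726 to 18089727 estimated reads in the 800 ppm group and 13118855 to 19841916 in the 400 ppm group. The tables do not pair the assembly identifiers with gene names, so the leaf label could not be checked against marker genes, and members are called by their rank of mean TPM in the 800 ppm group. In bulk leaf RNA, more cells that express a gene and more RNA per cell cannot be told apart.

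Carbon dioxide is the substrate that Rubisco fixes in the chloroplast, and a higher concentration favors carboxylation over oxygenation, the reaction that starts photorespiration. Leaves of many plants respond to elevated CO2 with changed transcript levels for photosynthesis, carbohydrate metabolism and secondary metabolism, and they often close their stomata in part. Apiaceae such as fennel also make phenylpropanoids and flavonoids in their leaves. Which of these functions the 20 members belong to was not analysed here.

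The members formed a set of intermediate abundance that was scarce in the 400 ppm group. Their summed TPM was 1333, 745 and 915 in the 800 ppm libraries (replicates 1 to 3), against 70.4, 27.5 and 64.9 in the 400 ppm libraries. The lowest 800 ppm sum was 10.6 times the highest 400 ppm sum, and replicate 1 of the 800 ppm group stood highest. The sum averaged 998 ± 303 TPM in the 800 ppm group and 54.2 ± 23.3 TPM in the 400 ppm group (SD, n = 3 each), a ratio of 18.4. In the 800 ppm group the members took 0.0998% ± 0.0303 of all TPM, against 0.00542% ± 0.00233 in the 400 ppm group (SD, n = 3 each). The 10 most abundant members held between 79.7% and 82.9% of that sum in the 800 ppm libraries and between 81.3% and 84.9% in the 400 ppm libraries.

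**Figure D1:**
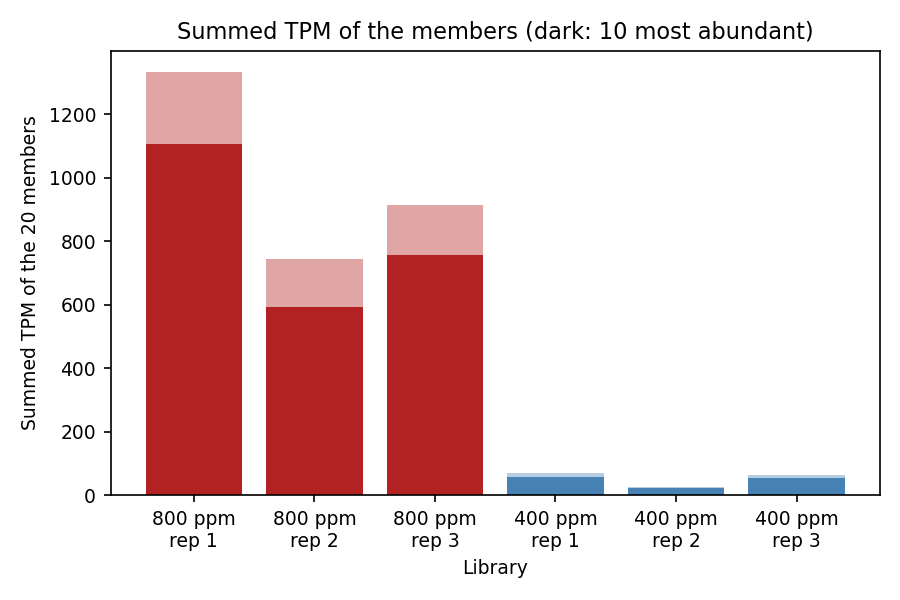
Summed TPM of the 20 members in each library, with the 3 libraries of the 800 ppm group in red and the 3 of the 400 ppm group in blue. The dark part of a bar is the sum of the 10 most abundant members and the pale part that of the other 10. The 800 ppm bars stand at 1333, 745 and 915 TPM and the 400 ppm bars at 70.4 TPM or below.

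Mean TPM of single members ranged between 8.27 and 141 in the 800 ppm group, with a median of 31.1, and between 0.283 and 9.91 in the 400 ppm group, with a median of 1.23. Among all 27955 genes ordered by mean TPM, the members took places 1002 to 12184 in the 800 ppm group and places 12435 to 26290 in the 400 ppm group. The ratio of group means ranged between 9.20 and 54.6, with a median of 22.6. It was above 10 in 18 members and above 20 in 12. Between 150 and 6773 reads stood behind a member over the 3 libraries of the 800 ppm group, and between 5 and 473 reads over those of the 400 ppm group. The values of the least abundant members at 400 ppm therefore rest on few reads.

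The most abundant member was TRINITY_DN6358_c0_g1, a gene of 4 contigs whose longest contig has 2294 bases. Its TPM was 204, 57.1 and 162 in the 800 ppm libraries, against 7.65, 1.31 and 2.91 in the 400 ppm libraries. The 800 ppm values differed among themselves by a factor of 3.57, with replicate 2 lowest, and the lowest of them was still 7.46 times the highest 400 ppm value. The mean was 141 ± 75.4 TPM in the 800 ppm group and 3.96 ± 3.30 TPM in the 400 ppm group (SD, n = 3 each).

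The member of rank 2 consisted of 1 contig of 1404 bases and had 192, 136 and 83.1 TPM in the 800 ppm libraries, against 11.4, 2.92 and 4.08 TPM in the 400 ppm libraries. Its mean of 137 ± 54.6 TPM in the 800 ppm group was not separable from that of the most abundant member by the replicate spread. The member of rank 3, a contig of 1790 bases, had 141, 100 and 89.8 TPM at 800 ppm, against 0.81, 0.70 and 9.86 TPM at 400 ppm. Its level at 400 ppm rested on replicate 3, which held 163 reads against 12 and 16 reads in replicates 1 and 2.

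The members of ranks 4 to 6 were the ones best measured at 400 ppm, with 361 to 473 reads in that group. Rank 4 had 111, 69.3 and 111 TPM in the 800 ppm libraries, against 9.36, 1.85 and 9.82 TPM in the 400 ppm libraries. Rank 6 had 70.6, 54.8 and 70.1 TPM at 800 ppm, against 7.43, 4.96 and 8.84 TPM at 400 ppm. With a coefficient of variation (CV, the SD as a percent of the mean) of 13.8% over the 800 ppm libraries and 27.8% over the 400 ppm libraries, rank 6 had the lowest replicate spread of all 20 members in each group. It also had the lowest ratio of group means among them, 9.20.

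Replicate 1 of the 800 ppm group stood apart from the other libraries in several members of intermediate abundance. Rank 7 had 91.3, 38.2 and 32.7 TPM in the 800 ppm libraries, against 4.79, 2.51 and 2.56 TPM in the 400 ppm libraries. Rank 8 had 86.0, 21.2 and 47.8 TPM at 800 ppm, against 3.67, 0.83 and 3.02 TPM at 400 ppm. Rank 10, a contig of 1466 bases, was the most extreme of these. It had 74.0, 6.56 and 20.8 TPM in the 800 ppm libraries, against 1.27, 0.44 and 0.30 TPM in the 400 ppm libraries. Its values in the 800 ppm group spanned a factor of 11.3, with a CV of 105%, the highest of the set, and its group mean of 33.8 TPM describes none of the 3 libraries closely.

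Ranks 9 to 14 had lower levels, and how far the 800 ppm libraries lay apart varied among them. Rank 9 had 46.3, 36.3 and 24.0 TPM at 800 ppm, against 0.09, 0.28 and 2.58 TPM at 400 ppm, where 34 of its 40 reads lay in replicate 3. Rank 12 had 23.9, 30.9 and 24.2 TPM at 800 ppm, against 4.51, 1.84 and 0.65 TPM at 400 ppm, and was the member with its highest 800 ppm value in replicate 2. Rank 13, a contig of 700 bases, had 22.6, 18.0 and 35.7 TPM at 800 ppm, against 0.43, 0.14 and 1.17 TPM at 400 ppm. The order of the 800 ppm libraries differed among these 3 members. Rank 11 had 46.5, 22.9 and 16.1 TPM at 800 ppm, against 1.31, 0.62 and 1.33 TPM at 400 ppm. Rank 14 had 29.0, 13.7 and 11.0 TPM at 800 ppm, against 0.89, 0.83 and 1.48 TPM at 400 ppm. In both, replicate 1 stood above the other 800 ppm libraries, and all groups were separated, as the rule requires.

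Of the 20 members, 4 stayed below 1 TPM in every library of the 400 ppm group (ranks 15, 16, 18 and 20). Rank 15, a contig of 2131 bases, had 22.5, 12.6 and 13.0 TPM in the 800 ppm libraries, against 0.33, 0.25 and 0.45 TPM in the 400 ppm libraries, which hold 6, 7 and 9 reads. Its lowest 800 ppm value was 28.1 times its highest 400 ppm value, the widest gap of the set. Rank 16 had 22.3, 12.7 and 11.4 TPM at 800 ppm, against 0.23, 0 and 0.62 TPM at 400 ppm, from 2, 0 and 6 reads. Its ratio of group means, 54.6, was the highest among the members and rests on these few reads. Rank 20, the least abundant, had 9.95, 7.74 and 7.13 TPM at 800 ppm, against 0.24, 0.38 and 0.47 TPM at 400 ppm, a ratio of group means of 22.8. The lowest level at 800 ppm thus went with a ratio close to the median of the set.

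A TPM of 0 occurred in only 2 members, ranks 16 and 18, and only in replicate 2 of the 400 ppm group. At the depth of that library, 3 reads on the main contig, taken as the limit that a count of 0 allows, correspond to 0.225 TPM for rank 16 and 0.712 TPM for rank 18. These limits cover counting error only. Rank 18, the shortest member with contigs of up to 505 bases, had 16.8, 13.3 and 11.1 TPM in the 800 ppm libraries, against 0.72, 0 and 0.99 TPM in the 400 ppm libraries, with 5 reads in all at 400 ppm. Across the whole series, 543 genes had a TPM of 0 in every 400 ppm library, and the highest value that any of them reached in its lowest 800 ppm library was 1.55 TPM, from 2 reads. Of the 543, 127 had TPM in all 3 libraries of the 800 ppm group. None of the 543 averaged 5 TPM or more in the 800 ppm group. Genes with TPM in the 800 ppm group only were thus found, but below the level at which the members were chosen.

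Members near the thresholds were also examined. Rank 10 was just inside the ratio, with its lowest 800 ppm value at 5.17 times its highest 400 ppm value, and ranks 12, 19 and 8 followed at 5.29, 5.66 and 5.77 times. Just outside were 19 genes with at least 5 TPM in every 800 ppm library and a ratio of 4 or more but under 5. The nearest of them had 87.5, 17.4 and 74.3 TPM at 800 ppm, against 1.71, 2.46 and 3.60 TPM at 400 ppm, and a ratio of 4.83. The most abundant of the 19 had 791, 608 and 861 TPM at 800 ppm, against 119, 99.96 and 145 TPM at 400 ppm. By level, 1 gene lay just outside, with a lowest 800 ppm value of 4.26 TPM. When the thresholds were applied to group means in place of the lowest and highest library, 175 genes met them. Of the 155 that were not members, 96 failed on the ratio alone, 6 on the minimum level alone and 53 on both. The set of 20 is thus the part of a larger group in which every library conforms. In 85 of the 155, replicate 2 was the lowest 800 ppm library. It was the lowest in 32.3% of the 13284 genes with at least 5 TPM in each 800 ppm library, which leave out genes that failed on the level.

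For the whole table, edgeR's quasi-likelihood test on gene-level counts was fitted to 20328 genes that passed its filter on low counts. In this fit 14.8% of the genes tested were called higher in the 800 ppm group at an FDR under 0.05, and 9.96% were called lower. All 20 members passed the filter, and all 20 were among the genes called higher, which follows from how they were chosen and supports nothing. In 24.1% of the genes tested, every 800 ppm library lay above every 400 ppm library. That share is for counts divided by library size and TMM factors. In TPM the share was 11.9% of the 20948 genes with a mean of at least 1 TPM. The fitted log2 fold changes of the members ranged between 3.33 (standard error 0.22, rank 6) and 6.18 (standard error 0.74, rank 16), with a median of 4.85, beside a median of -0.01 over all genes tested. The test itself gives no standard error. Those printed here and below are the absolute log2 fold change divided by the square root of the F statistic of the test. TPM and the edgeR fit differ in scale. Over 20948 genes with a mean of at least 1 TPM, the median log2 ratio of group means was -0.36 in TPM and -0.10 in TPM divided by the TMM factors that edgeR uses. With TPM scaled in that way, 41 genes met the rule, with all 20 members among them.

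The replicate spread of the members was wider than that of genes of a like level in the 800 ppm group. The median CV over the 3 libraries at 800 ppm was 35.4% for the members, between 13.8% and 105%, and 13.5% (quartiles 8.38% and 21.9%) for the 10986 genes with at least 5 TPM in each 800 ppm library and a mean within the range of the members. All 20 members lay above that median. Counting error alone would give the members a median CV of 4.46%, close to the 4.69% of the genes of a like level. For 6 members the CV was over 50%. The rule sets only the lowest value at 800 ppm and leaves the spread above it free, yet it uses the same libraries, so the difference is a description.

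At 400 ppm the members also varied, on fewer reads. Their median CV there was 61.6%, against 43.0% (quartiles 21.4% and 87.0%) for 13867 genes of a like mean TPM, and 13 of 20 members lay above the median of those genes. The median of the members thus lay within the quartiles of those genes. Counting error would give a median CV of 23.5% for the members and 29.1% for the genes of a like level. The rule limits the highest 400 ppm value of every member and so uses these libraries too, so the difference is a description. The CV of ranks 3 and 9, 139% and 141%, came from replicate 3 of the 400 ppm group, as described above.

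**Figure D2:**
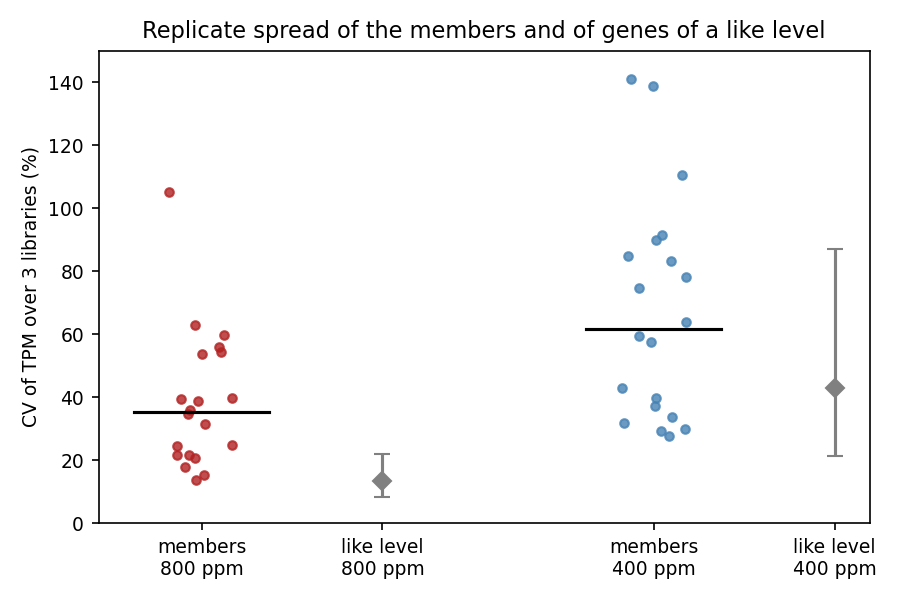
CV of TPM over the 3 libraries of a group, in percent, for each of the 20 members (points, the black line is their median) and for genes of a like mean TPM (grey diamond for the median, bars for the quartiles). At 800 ppm all 20 points lie above the grey median of 13.5%, and at 400 ppm 13 of 20 lie above that of 43.0%.

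Some libraries were the highest or the lowest of their group in a larger share of the members than of the genes of a like level, a difference given without a test. Within the 800 ppm group, replicate 1 was the highest library in 15 of 20 members (75%), against 43.0% of the genes of a like level, and replicate 2 was the highest in 1 member (5%), against 36.4%. The lowest 800 ppm library was replicate 2 in 10 members (50%), against 31.7% of the genes of a like level, and replicate 3 in 9 members (45%), against 50.7%. Within the 400 ppm group, replicate 2 was the lowest library in 16 of 20 members (80%), against 44.7% of the genes of a like level, and the highest in 0 members, against 22.0%. Across the 20 members, Pearson's r of log2(TPM + 1) was 0.80 to 0.87 between libraries of the 800 ppm group and 0.65 to 0.89 between those of the 400 ppm group. Across the 13284 genes with at least 5 TPM in each 800 ppm library, it was 0.95 to 0.97 in the 800 ppm group and 0.96 in the 400 ppm group. These are correlations across genes that share libraries, and the members span a narrower range of levels. Replicate 1 of the 800 ppm group held 16268362 reads and replicate 2 of the 400 ppm group 19841916, the most of all 6. The part of depth in these shares was not tested.

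The number and length of contigs were not used by the rule. Of the 20 members, 10 consisted of 1 contig (50%), against 52.0% of the 13284 genes with at least 5 TPM in each 800 ppm library, and no member had more than 4 contigs. The longest contig of a member had 505 to 2458 bases, with a median of 1727 bases, against a median of 1954 bases for those 13284 genes. The quartiles were 1420 and 1992 bases for the members and 1354 and 2735 bases for those genes, and no member had a contig longer than 2458 bases.

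In the 10 members with several contigs, most of the TPM at 800 ppm came from 1 contig. The main contig at 800 ppm averaged at least 90% of the expression of its gene over the 800 ppm libraries in 7 of the 10. Of the 8 that had TPM in every library, the share of this contig was higher in every 800 ppm library than in every 400 ppm library in 3 members and overlapped between the groups in 5. Chosen in the same way, the main contig had a higher share in every 800 ppm library in 14.4% of the 6372 genes with several contigs, at least 5 TPM in each 800 ppm library and TPM in every 400 ppm library. An exact two-sided permutation test of a single share cannot give a p below 0.1 with 3 libraries per group, so these shares were not tested.

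The change in contig share was widest for rank 6. Its contig of 1843 bases made up 76.2%, 91.0% and 87.0% of the gene in the 800 ppm libraries, against 35.7%, 28.1% and 42.0% in the 400 ppm libraries. The other contig of this gene, of 2458 bases, had 16.8, 4.94 and 9.13 TPM at 800 ppm, against 4.77, 3.57 and 5.12 TPM at 400 ppm. The main contig of the gene thus differed between the groups. For rank 8, the contig of 1178 bases made up 90.7%, 89.8% and 93.0% in the 800 ppm libraries, against 79.1%, 66.4% and 77.5% in the 400 ppm libraries. Rank 18 also had a different main contig in each group, but with 5 reads at 400 ppm its share there carries little information. Reads can be divided between similar contigs by the estimation, so the share of a single contig is less certain than the sum over its gene.

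**Figure D3:**
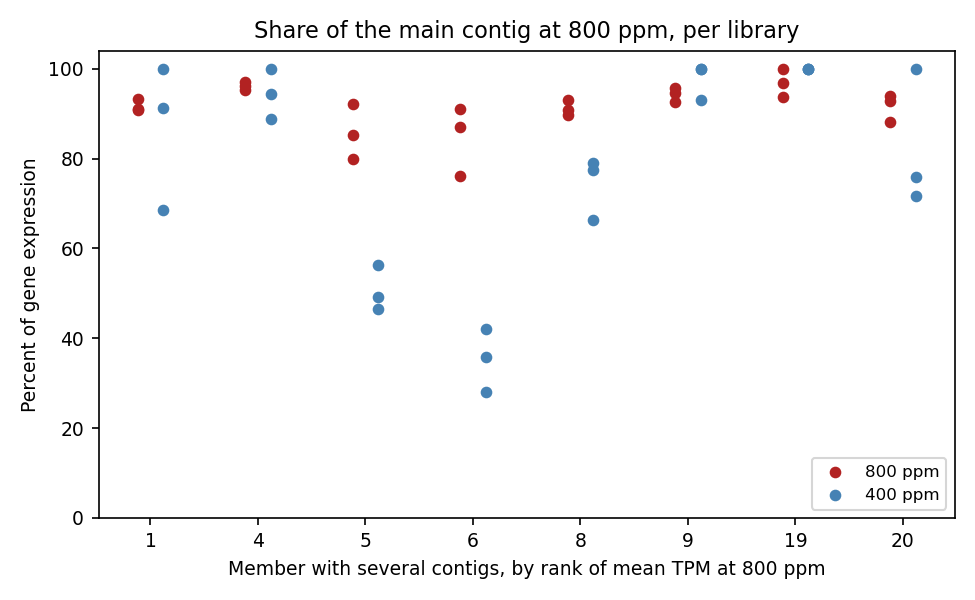
Percent of the expression of a gene that its main contig at 800 ppm contributes, per library, for the 8 members with several contigs and TPM in all 6 libraries (red 800 ppm, left; blue 400 ppm, right). Ranks 5, 6 and 8 have all 800 ppm points above all 400 ppm points, and rank 6 has the widest gap, with 76.2% or more at 800 ppm and 42.0% or less at 400 ppm.

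Trinity also groups genes into components, which are connected by shared sequence and can hold paralogs or variants of 1 gene. Reads can also be divided by the estimation between similar genes of a component, so a member and its neighbours need not vary independently. The part of this in the values below was not tested. No component held more than 1 of the 20 members. In 9 members the component held other genes (45%, against 37.0% of the 13284 genes with at least 5 TPM in each 800 ppm library), and 11 members were alone in theirs. The 9 members had 14 such neighbours. Of these, 5 were higher in TPM in every 800 ppm library than in every 400 ppm library, 5 were lower in every 800 ppm library, and 4 overlapped between the groups. Over the 20948 genes with a mean of at least 1 TPM, 11.9% were higher in TPM in every 800 ppm library and 40.5% lower in every one. In edgeR's quasi-likelihood test 13 of the 14 were tested, with 5 called higher and 3 called lower in the 800 ppm group, beside the 14.8% and 9.96% called over all genes. These counts fell to 2 called higher without replicate 1 of the 800 ppm group, to 3 higher without replicate 1 or replicate 3 of the 400 ppm group, and to 1 called lower without replicate 2 of the 400 ppm group or replicate 2 or 3 of the 800 ppm group. For 2 neighbours, not called, the TPM ratio and the fitted fold change differed in sign.

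Added up over the component, the 9 members with neighbours gave smaller ratios than the members alone. The ratio of the component sums in mean TPM was between 0.96 (rank 20) and 3.78 (rank 18), where the members themselves had ratios of 9.20 to 50.4. With TPM divided by TMM factors the component sums had ratios of 1.15 to 4.55, so the direction for rank 20 depends on the scaling. In 3 of the 9 components, those of ranks 10, 17 and 20, the sums overlapped between the groups, and with TMM-scaled TPM in 2 of them. The other 6 sums were higher in TPM in every 800 ppm library, beside 10.1% of the 3795 components that held several genes and had a mean of at least 1 TPM. The members are part of these sums, so nothing is read from that count. The members made up 13.1% to 74.7% of their component in the 800 ppm group, against 1.14% to 14.1% in the 400 ppm group. Each of these 9 members was a minor part of its component at 400 ppm. The rule chose the members, and not their neighbours, for low values at 400 ppm and high values at 800 ppm. That choice favors both these shares and the smaller ratios of the sums, so nothing is read from them. No component sum of these 9 met the rule, which left the 11 members without neighbours.

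In the component of TRINITY_DN2427_c0_g2, the member of rank 5, a neighbour was far lower at 800 ppm, and this component was singled out after its values had been seen. This gene had 89.4, 74.9 and 115 TPM in the 800 ppm libraries, against 12.1, 6.54 and 11.1 TPM in the 400 ppm libraries. Its neighbour TRINITY_DN2427_c0_g3, a single contig of 1109 bases, had 3.12, 3.91 and 2.98 TPM in the 800 ppm libraries, against 38.2, 28.3 and 33.6 TPM in the 400 ppm libraries. The neighbour met the mirrored rule, at least 5 TPM in every 400 ppm library and 5 times the highest 800 ppm value, and was 1 of 33 genes that met it in the whole series. Its ratio of group means was 0.10, on 114 reads over the 800 ppm libraries and 1003 over the 400 ppm libraries. The third gene of the component had 81.9, 55.2 and 46.9 TPM at 800 ppm, against 37.9, 13.5 and 29.9 TPM at 400 ppm. The sum over all 3 genes was 158 ± 21.1 TPM in the 800 ppm group and 70.4 ± 20.3 TPM in the 400 ppm group (SD, n = 3 each), a ratio of 2.24. Within the member, the contig of 1335 bases made up 79.9%, 85.3% and 92.2% of the gene in the 800 ppm libraries, against 56.4%, 49.1% and 46.5% in the 400 ppm libraries. This was the 1 member of 20 with a neighbour under the mirrored rule. Among the 13284 genes with at least 5 TPM in each 800 ppm library, the members included, 15 (0.113%) lay in a component with a gene under the mirrored rule. Genes that met the mirrored rule themselves were not left out of that count. Among the members the share was 5%.

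Neighbours in other components lay on either side. In the component of rank 6, the neighbour had 53.3, 55.1 and 47.6 TPM at 800 ppm, against 78.6, 78.1 and 93.0 TPM at 400 ppm, and the sum had a ratio of 1.30. This neighbour was not called by edgeR's quasi-likelihood test (log2 fold change -0.33, standard error 0.12, adjusted p = 0.0838). In the component of rank 20, the neighbour had 8.47, 7.39 and 6.71 TPM at 800 ppm, against 15.6, 19.0 and 13.5 TPM at 400 ppm. It was called lower by the same test (log2 fold change -0.76, standard error 0.18, adjusted p = 0.0264). The 2 genes of that component together stood at 15.8 ± 2.36 TPM in the 800 ppm group and 16.4 ± 2.72 TPM in the 400 ppm group (SD, n = 3 each), a difference within the replicate spread. In the component of rank 4, both genes were higher in the 800 ppm group, the neighbour with 392, 309 and 406 TPM, against 173, 190 and 168 TPM in the 400 ppm group (edgeR log2 fold change 1.38, standard error 0.15, adjusted p = 0.00262). In that of rank 10, 1 neighbour had 170, 58.2 and 122 TPM at 800 ppm, against 74.8, 6.49 and 45.9 TPM at 400 ppm, and was not called by edgeR's quasi-likelihood test (log2 fold change 1.82, standard error 0.77, adjusted p = 0.128). Replicate 1 was its highest and replicate 2 its lowest library in each group, and within the 800 ppm group this is the order of the member itself. The other neighbour of rank 10, a contig of 3836 bases, had 9.10, 5.39 and 4.65 TPM at 800 ppm, against 16.5, 19.1 and 11.9 TPM at 400 ppm, and was called lower by the same test (log2 fold change -0.99, standard error 0.28, adjusted p = 0.0424).

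**Figure D4:**
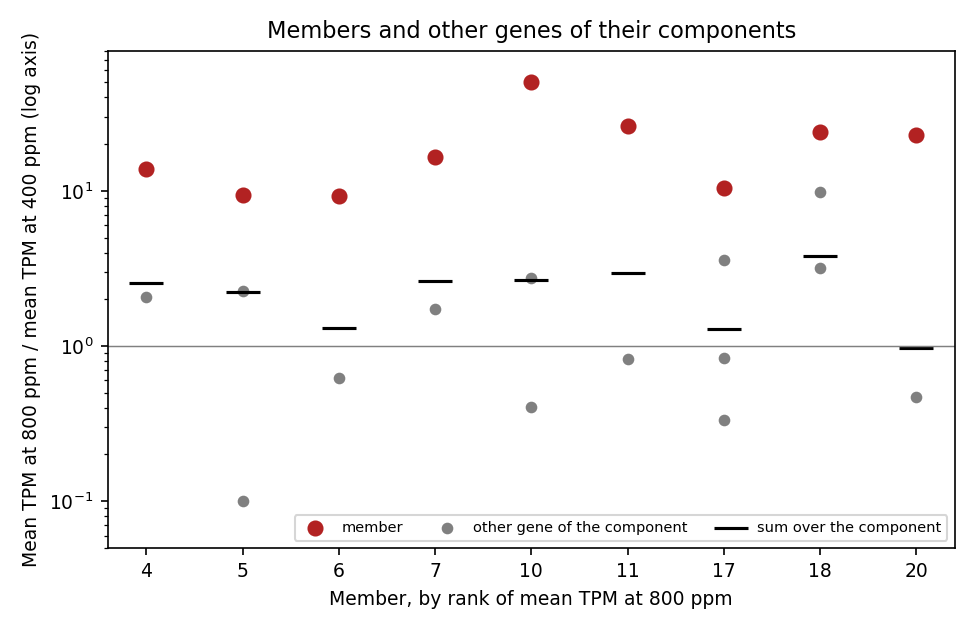
Ratio of mean TPM at 800 ppm to mean TPM at 400 ppm on a log axis, for the 9 members with other genes in their component (red), those other genes (grey) and the sum over the component (black line). The members lie between 9.20 and 50.4, the sums between 0.96 and 3.78, and the lowest grey point, at 0.10, is the neighbour of rank 5.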

How the data were processed

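Leaf libraries (3 at 800 ppm and 3 at 400 ppm CO2) were grouped by their labels. The authors assembled contigs from the merged paired-end reads with Trinity, kept open reading frames with TransDecoder, used CD-hit against redundancy and took expression from a Trinity script. The sources used here give no aligner, estimation program or version, and edgeR is named in the submitters' processing notes. Per contig, the authors deposited an estimated count without normalization, TPM and FPKM (both per effective length and library size) and the percent of the gene that a contig contributes. TPM was summed over the contigs of each gene and taken as deposited for the rule. Estimated counts were summed per gene, rounded and tested with edgeR 4.0.16 in R 4.3.3 (quasi-likelihood test, TMM factors, filterByExpr defaults, Benjamini-Hochberg adjustment over all genes tested, FDR under 0.05). Alternatives were DESeq2 1.42.0, other factors and filters, other thresholds of the rule, FPKM, single contigs, a replicate block and the omission of each library in turn. Group means, sums over components and genes of a like level were added after seeing the data.

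On simulated counts with 50 genes changed per fold size among 20075 tested, the share called was 24% for 2-fold, 88% for 4-fold, 96% for 8-fold and 98% for 16-fold changes. Calls on unchanged genes numbered 13. The changed genes were raised at 800 ppm only and had a minimum mean count, so these shares do not cover scarcer genes or decreases. The counts were drawn by library size alone, without a difference in TMM factors between the groups. In the data these factors were 1.06 to 1.13 at 400 ppm and 0.89 to 0.95 at 800 ppm. The 13 calls therefore do not give the number of false calls in the real fit. The members and lists were chosen with earlier results of these data known. Library totals were 13118855 to 19841916 reads, and no pair of libraries of a group was alike within sampling noise (chi-square per degree of freedom 28.9 or more). At most 2 identifiers that rose and 2 that fell are printed, by a fixed rule (the member of highest mean TPM, the highest among those at 0 at 400 ppm, which no member met, and neighbours under the mirrored rule), since the tables do not pair them with gene names. TRINITY_DN2427_c0_g2 was named outside that rule. Figures were drawn with matplotlib 3.10.9.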

Additional observations from a re-analysis of the deposited data

How the results depend on the processing

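Against 20 members, a ratio of 3 gave 84 genes and a ratio of 10 gave 6, TPM divided by TMM factors 41, single contigs 33, group means 175 and component sums 11 components. With a library left out the rule gave 22 to 57 genes, the most without replicate 2 of the 800 ppm group. All 20 members were in each of these 6 sets, since a rule over fewer libraries is easier to meet. Without the 10 most abundant members the share of TPM at 800 ppm was 0.0180%, against 0.0998%. The spread at 800 ppm was 0.47 as the SD of log2(TPM + 1), another unit than the CV of 35.4%, which became 26.6% to 31.5% with a library left out.

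In the test, 5038 genes were called, 3013 higher and 2025 lower in the 800 ppm group. With library size only, 1955 were called higher and 5023 lower. With a library left out, 2628 to 4879 were called in all, 1797 to 2808 higher and 693 to 2071 lower, and among the neighbours 2 to 5 higher and 1 to 3 lower. The causes were not tested. With the replicate block, 3757 genes were called (2403 higher, 1354 lower), with all 20 members among them. Pearson's r between the deviations of same-numbered libraries was 0.20, 0.02 and -0.14 for replicates 1, 2 and 3. Between libraries of different number it ranged between -0.19 and 0.17. Deviations within a group of 3 libraries depend on each other, so these values cannot decide whether the numbers pair the samples. All 20 members stayed called higher in all 12 alternatives, as their choice implies, and each of the 3 named genes kept direction and call in the same 12. Depth limits the 400 ppm values of members with few reads.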
